A study of Mus musculus with 4 samples.

Results

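Fos-positive oligodendrocytes were 88 single cells, 29.5% of the 298 oligodendrocyte-like cells and 12.3% of the 716 cells kept in this dataset. Each cell was sorted into its own well and sequenced by Smart-seq2, a plate method that copies polyadenylated transcripts over their whole length and does not tag single molecules, so counts are of reads. Wells with 500 to 6000 detected genes were kept. A well was placed in class O where at least 3 of 6 oligodendrocyte genes (Mog, Mag, Opalin, Ermn, Mal and Ugt8a) reached 10 counts and no panel of astrocyte (class A), endothelial (class E), mural (class M) or neuroblast (class N) genes had as many. Class O wells with 10 or more counts of Fos were called Fos-positive, and the other 210 Fos-negative. The cells were thus chosen by their Fos and panel gene counts, whose values are given as a description, with no test.

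The cells came from the dentate gyrus of 8 male mice that carry a green fluorescent reporter driven by nestin, a filament gene of neural stem cells. At 2 months of age, 4 mice (numbers 2, 4, 6 and 8) were infused into the cerebral ventricle with 2 µl of a cholesterol-modified locked nucleic acid antagomir against miR-132 at 0.33 nmol/ml. A scrambled oligonucleotide went to the other 4 mice (1, 3, 5 and 7), at a dose that the sources used here do not give. Tissue was taken at 3 months of age and 96 cells were sorted per mouse. The first sort day took mice 1 to 4 and the second mice 5 to 8, and mice 1, 2, 5 and 6 were sequenced in pool L5 and mice 3, 4, 7 and 8 in pool L6. All cells passed a nestin-GFP gate, so they are not a sample of all oligodendrocytes of this region. Nes, the nestin gene, reached 10 counts in 50 of 88 Fos-positive and 127 of 210 Fos-negative wells.

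Oligodendrocytes wrap axons in myelin, a stack of membrane rich in proteins such as Mbp and Mog. Fos encodes a transcription factor that pairs with proteins of the Jun family to form AP-1. It belongs to the immediate early genes, which are switched on quickly after a stimulus without new protein synthesis and whose transcripts decay fast. Calcium, cyclic AMP and MAP kinase signals induce them through the factors CREB and SRF, and some of the induced genes, among them Dusp1 and Zfp36, dampen the response. They are widely used as markers of neuronal activity and are also known to be induced during tissue dissociation.

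The promoters of Fos, Dusp1, Jun and Fosb are shown. The other 3 were taken by rule, as the early response genes with the smallest adjusted p by Fos status. The rule asked for a promoter entry and left out 1 chromosome. Egr1 and Ier2, with a smaller adjusted p than Fosb, are therefore not shown. Each sequence is from RefSeq (GRCm38.p6), 250 bases before to 50 bases after the transcription start, read 5′ to 3′ on the gene's strand. Capitals mark the CREB element TGACGTCA and its shorter core TGACG, searched on both strands; the core is part of the full element, so matches overlap.
Fos, chr12:85473640-85473939, plus strand: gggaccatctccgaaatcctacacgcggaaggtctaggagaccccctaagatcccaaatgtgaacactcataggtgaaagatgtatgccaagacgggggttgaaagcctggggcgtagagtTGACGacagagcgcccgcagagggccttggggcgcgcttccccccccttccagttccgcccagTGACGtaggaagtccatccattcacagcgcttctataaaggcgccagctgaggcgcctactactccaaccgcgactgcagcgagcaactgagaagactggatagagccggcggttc
Dusp1, chr17:26508423-26508722, minus strand: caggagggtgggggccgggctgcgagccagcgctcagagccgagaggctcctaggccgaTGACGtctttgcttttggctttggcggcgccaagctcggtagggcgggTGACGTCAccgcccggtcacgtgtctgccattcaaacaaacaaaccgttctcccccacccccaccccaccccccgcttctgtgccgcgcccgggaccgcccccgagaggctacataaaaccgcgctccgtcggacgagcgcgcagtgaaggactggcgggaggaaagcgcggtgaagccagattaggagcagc
Jun, chr4:95052173-95052472, minus strand: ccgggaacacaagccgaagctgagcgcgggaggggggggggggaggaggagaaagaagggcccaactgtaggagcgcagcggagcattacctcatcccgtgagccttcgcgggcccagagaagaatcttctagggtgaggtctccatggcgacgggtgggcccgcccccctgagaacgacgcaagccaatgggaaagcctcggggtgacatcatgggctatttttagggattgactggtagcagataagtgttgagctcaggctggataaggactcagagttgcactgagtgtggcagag
Fosb, chr7:19309996-19310295, minus strand: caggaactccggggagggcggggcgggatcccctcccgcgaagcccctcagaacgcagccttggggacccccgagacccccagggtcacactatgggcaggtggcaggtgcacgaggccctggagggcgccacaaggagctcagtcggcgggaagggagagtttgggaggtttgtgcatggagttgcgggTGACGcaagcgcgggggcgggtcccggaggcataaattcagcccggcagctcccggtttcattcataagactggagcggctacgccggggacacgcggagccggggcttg

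The Fos window held the core at 2 places, the Fosb window at 1, and the Dusp1 window held the full element and another copy of the core. Neither was found in the Jun window, which says only that these letters are not there. The core is common: 20.8% of 32851 RefSeq promoter entries of this length hold it, while 1.79% hold TGACGTCA. The AP-1 motif TGANTCA was in 7.81% of entries and the CArG box bound by SRF in 1.63%, and neither was in these 4 windows. Variants of the motif letters were not counted, such as TGACATCA, which the Jun window holds. Sequence outside the windows was not searched, so a CArG box or AP-1 motif further upstream would have been missed. Its absence here does not show that a gene, Fos among them, lacks it. Of 20 early response genes that averaged at least 20 reads per 1000000 (CPM) in either kind of class O well, 17 had an entry. The core was in 12 of these, the full element in 4, the CArG box in 2 and the AP-1 motif in 0. The 17 genes had 28 entries between them. These counts are of genes and the shares above are of entries, so they cannot be set side by side. These are letter matches and not measured binding.

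Fos counts left a gap between the groups. Fos-positive wells had 37 to 12399 Fos counts with a median of 1885, or 110 to 14551 CPM with a median of 2544 CPM. Of the Fos-negative wells, 199 had 0 Fos counts, 10 had 1 and 1 had 2. The wells just inside the threshold had 37, 46 and 75 counts and those just outside had 2, 1 and 1.

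**Figure D1:**
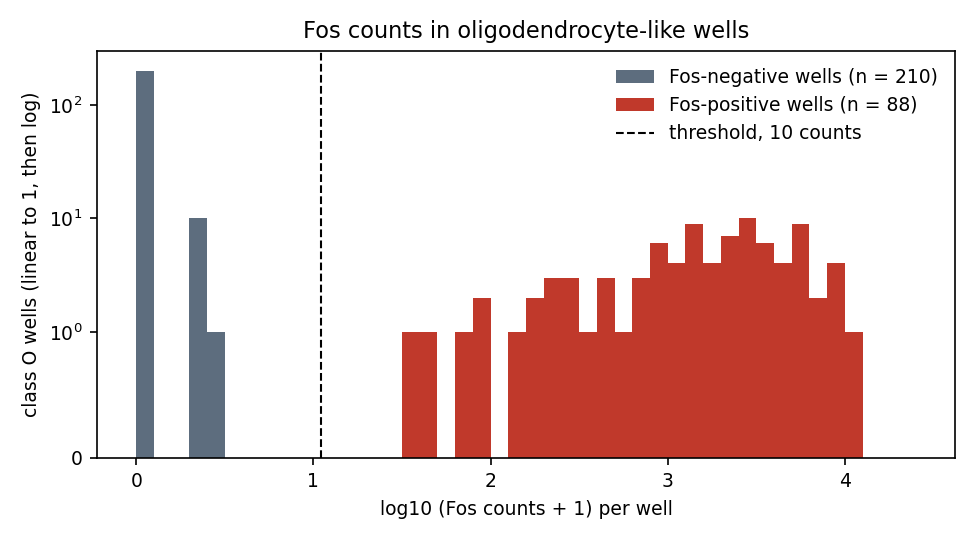
Fos counts per class O well, as log10 (counts + 1), with the number of wells on an axis that is linear near 0 and logarithmic above; grey bars are Fos-negative and red bars Fos-positive wells, and the dashed line is the threshold of 10 counts. The 88 Fos-positive wells start at 37 counts and the 210 Fos-negative wells end at 2.

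The panel genes placed the wells in class O, so their levels describe the cells and do not test the class. All 6 were at 10 or more counts in 86 of 88 Fos-positive and 200 of 210 Fos-negative wells. Mog, found on the outside of myelin, had 1886, 2521 and 2847 CPM (lowest, median and highest of 6 mice) in Fos-positive and 2371, 2721 and 2952 CPM in Fos-negative wells. Mag, an adhesion protein of the inner myelin layer, had 3146, 5420 and 5975 CPM against 3100, 5569 and 6362 CPM, so the ranges overlapped for both genes. Mbp, a myelin gene that the rule did not use, was at 10 or more counts in 88 of 88 Fos-positive and 210 of 210 Fos-negative wells. Klk6, a protease of some mature oligodendrocytes that was put forward as a marker of these cells, was at 10 or more counts in only 6 of 88 Fos-positive (6.82%) and 15 of 210 Fos-negative wells (7.14%), so it did not mark them. Its level was 64.1 ± 71.4 against 20.7 ± 18.9 CPM (SD, n = 6 mice), higher in 3 of 6 mice. Arc, an immediate early gene of synaptic activity in neurons, was at 10 or more counts in 57 Fos-positive (64.8%) and 122 Fos-negative wells (58.1%).

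Pooled over wells, the median was 831314 counts and 2989.5 genes in Fos-positive and 842122 counts and 2983.5 genes in Fos-negative wells. Taken per mouse, median counts were 802818 ± 154144 against 733616 ± 182565 (SD, n = 6 mice), higher in Fos-positive wells of 5 of 6 mice (exact two-sided sign-flip p = 0.0938). Median genes per mouse were 2954 ± 146 against 2959 ± 250 (exact sign-flip p = 0.938). A gene of another panel reached 10 counts in 45 of 88 Fos-positive (51.1%) and 104 of 210 Fos-negative wells (49.5%), mostly an astrocyte gene (42 and 94 wells). The share of mitochondrial reads was 2.01 ± 1.34% against 1.99 ± 1.26% (SD, n = 6 mice, exact two-sided sign-flip p = 0.875). It was 0.992% to 1.34% in mice of pool L5 and 2.73% to 4.20% in those of pool L6. No well name was shared between mice, and no doublet caller was run.

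Fos-positive cells were found in every mouse, at very unequal shares of class O. They were 9 of 31 class O wells in mouse 1 (29.0%), 24 of 39 in mouse 2 (61.5%), 16 of 45 in mouse 3 (35.6%) and 1 of 24 in mouse 4 (4.17%). On the second sort day they were 19 of 41 in mouse 5 (46.3%), 9 of 32 in mouse 6 (28.1%), 1 of 42 in mouse 7 (2.38%) and 9 of 44 in mouse 8 (20.5%). Mouse 2 was highest, and mice 4 and 7, of different treatments and sort days but both in pool L6, were lowest.

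The share was 28.6 ± 24.1% after the antagomir and 28.3 ± 18.7% after the scrambled oligonucleotide (SD, n = 4 mice each). The difference was 0.244 percentage points, with p = 0.971 by an exact two-sided permutation test (adjusted p = 0.971 over 6 comparisons). It was -10.7 percentage points without mouse 2 and -8.41 without mouse 7. Pool L5 averaged 41.3 ± 15.9% and pool L6 15.6 ± 15.6% (exact permutation p = 0.0857, adjusted p = 0.257), with mouse 3 of pool L6 above mice 1 and 6 of pool L5. The sort days averaged 32.6 ± 23.6% and 24.3 ± 18.2% (exact permutation p = 0.629, adjusted p = 0.943). The smallest p that 4 against 4 mice allow is 0.0286.

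**Figure D2:**
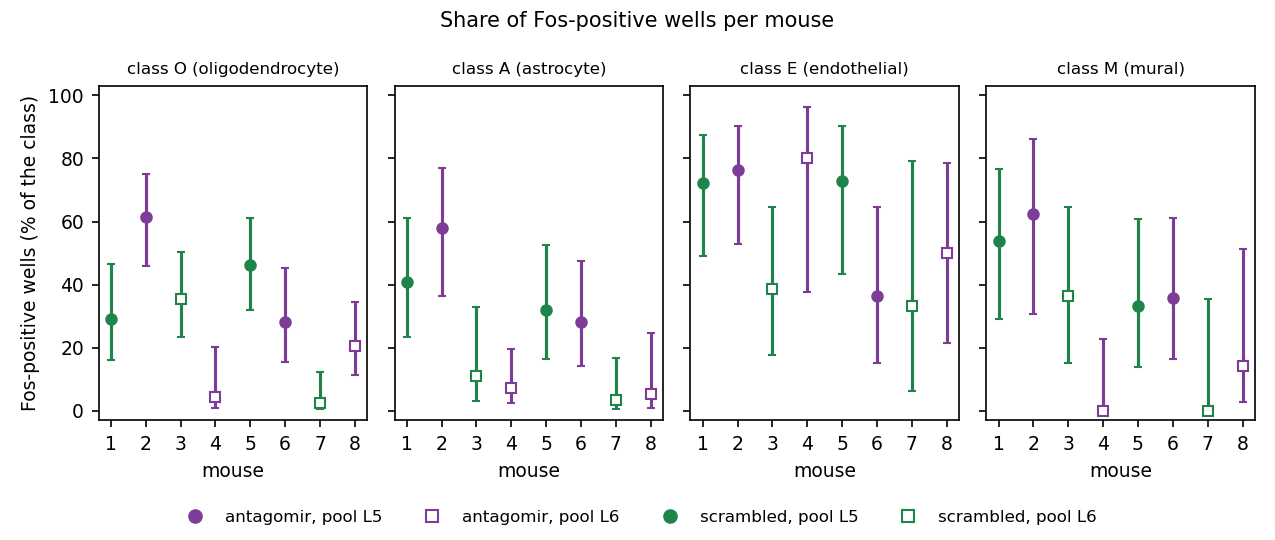
Percentage of Fos-positive wells in each mouse, for classes O, A, E and M; points are mice coloured by treatment, filled for pool L5 and open for pool L6, and bars are Wilson 95% intervals, which cover counting error only. In class O mice 4 and 7 sit at 4.17% and 2.38% and mouse 2 at 61.5%.

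The low share of mouse 4 was not found in every class. Mouse 7 had the lowest share of the 8 mice in classes O, A and E, and was lowest together with mouse 4 in class M. In mouse 4, 3 of 41 class A and 0 of 13 class M wells were Fos-positive, and in mouse 7, 1 of 30 and 0 of 7. Mouse 8, with 1 of 19 (5.26%), was below mouse 4 in class A. In class E, 4 of 5 wells of mouse 4 were Fos-positive (80.0%), the highest share of the 8 mice, and 1 of 3 of mouse 7 (33.3%). In mouse 2 the shares were 57.9% of class A and 62.5% of class M. Over the 8 mice the class O share was 5.24 percentage points above that of class A (higher in 5 of 8 mice, exact two-sided sign-flip p = 0.242, adjusted p = 0.484). The difference from class M was -1.06 percentage points (with class O higher in 4 of 8, exact sign-flip p = 0.820 and adjusted p = 0.971). The share was lower than in endothelial-like class E in 8 of 8 mice, at a mean of 28.4% against 57.4%, a difference of -29.0 ± 23.0 percentage points (SD). The exact sign-flip test gave p = 0.00781, the smallest 8 mice allow (adjusted p = 0.0469). Class E had only 3 to 18 wells per mouse.

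Fos-positive oligodendrocytes carried more of several other immediate early transcripts than Fos-negative oligodendrocytes of the same mice. Counts were summed per mouse and kind of well and compared by edgeR's quasi-likelihood test with the mouse as a block and Benjamini-Hochberg adjustment. The fit took the 6 mice with at least 5 wells of each kind and left out mice 4 and 7, which had 1 Fos-positive cell each. Of 9156 genes tested, 3 passed an adjusted p of 0.05 as higher in Fos-positive wells (0.0328%), namely Dusp1, Jun and Egr1. By edgeR 0 genes passed as lower (0.0%), while at an unadjusted p under 0.05 68 genes were higher (0.743%) and 218 lower (2.38%). DESeq2 on the same sums called 78 higher (0.852%) and 384 lower (4.19%). limma on the mean log2(CPM + 1) over a mouse's wells called 10 higher (0.109%) and 0 lower: the 3 genes above with Junb, Fosb, Dnajb1, Bcas1os1, Ier2, Egr2 and Btg2. With every well thinned to 200000 counts, edgeR called 5 genes, the same 3 with Ier2 and Dnajb1.

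Within a pool or a sort day, with 2 to 4 mice, fewer genes passed. Within pool L5 Jun alone passed, within pool L6 and within sort day 1 no gene passed, and within sort day 2 Egr1 alone passed. The log2 difference of Dusp1 was 3.62 in pool L5 and 3.15 in pool L6, that of Jun 2.63 and 3.16, and that of Egr1 10.85 and 12.52. Of all genes tested, 34.5% had a positive difference in the edgeR fit and 51.1% in limma's.

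Of 9 AP-1 genes in the files, Fos among them, 3 others were high enough to be tested, and each was higher in Fos-positive wells of 6 of 6 mice. Jun, a partner of Fos, had 473, 738 and 1339 CPM in Fos-positive and 33.0, 120 and 274 CPM in Fos-negative wells. Its groups did not overlap, and it rose by a log2 difference of 2.79 (SE 0.21, adjusted p = 0.00188, edgeR). Jun was not rare in Fos-negative wells, being at 10 or more counts in 85 of 210 of them, against 70 of 88 Fos-positive wells. Junb, another Jun protein, had 104, 341 and 677 CPM against 0.0737, 7.95 and 20.9 CPM, again without overlap (log2 difference 6.24, SE 1.24, adjusted p = 0.626 by edgeR and 2.55e-06 by DESeq2). Fosb, a close relative of Fos, had 105, 238 and 492 CPM against 0.0, 6.83 and 14.6 CPM (log2 difference 6.21, SE 1.24, adjusted p = 0.626 by edgeR and 2.84e-05 by DESeq2). Junb was at 10 or more counts in 58 of 88 Fos-positive and 6 of 210 Fos-negative wells, and Fosb in 59 and 5.

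The Egr genes encode zinc finger factors. Egr1 had 504, 1110 and 1504 CPM in Fos-positive wells. In Fos-negative wells it had 0.0 to 0.455 CPM in 5 mice and 20.9 CPM in mouse 2, so the groups did not overlap. The log2 difference was 11.60 (SE 1.35, adjusted p = 0.0413, edgeR). The adjusted p was 0.263 without mouse 1, 0.365 without mouse 3, 0.248 without mouse 5, 0.292 without mouse 6 and 0.187 without mouse 8, and it was 0.160 where Fos-positive meant 50 or more counts. Egr1 was at 10 or more counts in 69 of 88 Fos-positive and 5 of 210 Fos-negative wells. Egr2 was at 10 or more counts in 16 Fos-positive wells, at 13.2, 39.3 and 105 CPM over mice. It had 0 counts in the Fos-negative wells of the 6 mice (adjusted p = 1.00 by edgeR and 2.22e-18 by DESeq2). With 3 counts over that group standing in for 0, the ratio was 1846-fold. This ratio covers the counting of reads only and is no lower bound. By wells, Egr2 reached 10 counts in 16 of 88 Fos-positive and 0 of 210 Fos-negative wells.

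Of 13 genes known to feed back on MAP kinases 6 were tested, 2 with a positive and 4 with a negative difference (median log2 -0.57), and 1 passed. This was Dusp1, a phosphatase that inactivates MAP kinases. Dusp1 had 229, 527 and 1040 CPM in Fos-positive and 22.1, 43.9 and 71.1 CPM in Fos-negative wells. Every Fos-positive value lay above every Fos-negative one, and it rose by a log2 difference of 3.45 (SE 0.25, adjusted p = 0.00188, edgeR). It was at 10 or more counts in 57 of 88 Fos-positive and 36 of 210 Fos-negative wells. Zfp36, which binds and destabilises messenger RNAs, had 19.8, 96.3 and 143 CPM against 1.47, 7.36 and 27.5 CPM, higher in 6 of 6 mice with overlapping ranges (log2 difference 3.30, SE 0.85, adjusted p = 1.00 by edgeR and 2.84e-05 by DESeq2).

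Ier2, a nuclear early response protein, had 22.1, 55.2 and 235 CPM in Fos-positive and 0.0, 0.0 and 5.50 CPM in Fos-negative wells, without overlap (log2 difference 9.08, SE 1.61, adjusted p = 0.445 by edgeR and 2.51e-17 by DESeq2). Btg2, an antiproliferative gene, had 96.2 ± 62.1 against 2.63 ± 4.02 CPM and was higher in 5 of 6 mice (adjusted p = 1.00 by edgeR and 0.00563 by DESeq2), with 0 CPM in the Fos-positive wells of mouse 8. Outside the early gene lists, Dnajb1, a cochaperone of the heat shock response singled out after its values were seen, had 303, 395 and 836 CPM against 92.0, 163 and 193 CPM without overlap (log2 difference 1.55, SE 0.21, adjusted p = 0.114 by edgeR and 2.72e-12 by DESeq2). Its adjusted p by edgeR was 0.0393 after thinning and 0.0451 without mouse 8. Bcas1os1, also singled out afterwards, had 35.7 ± 15.5 against 4.74 ± 4.53 CPM (log2 difference 3.22, SE 0.88, adjusted p = 1.00 by edgeR and 4.51e-05 by DESeq2); it is antisense to Bcas1, and as no source used here gives the strand setting, reads of the pair cannot be told apart.

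**Figure D3:**
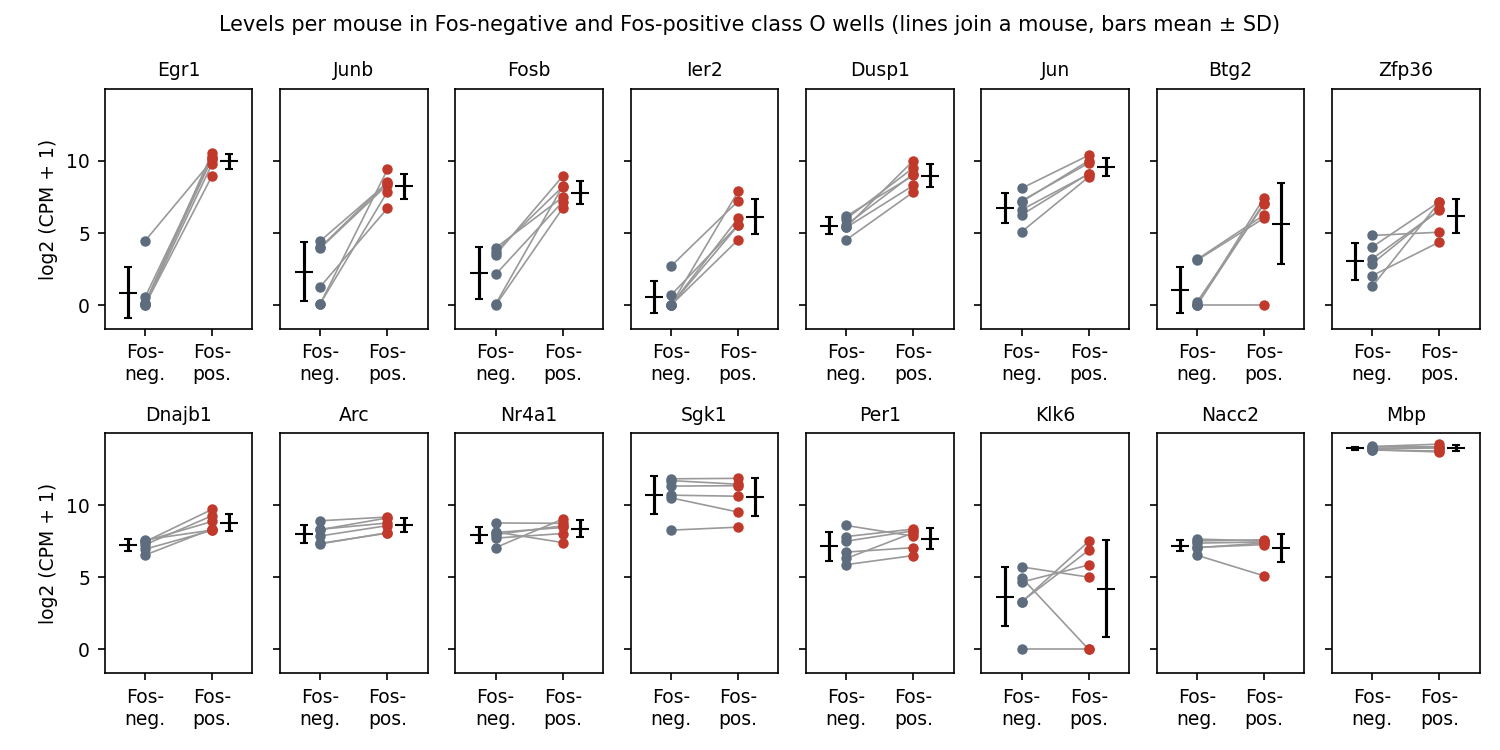
Levels of 16 genes, as log2 (CPM + 1) of counts summed per mouse, in Fos-negative (grey) and Fos-positive (red) class O wells; lines join the 2 values of each of 6 mice and black bars are mean ± SD. Egr1, Junb, Fosb, Ier2, Dusp1 and Jun separate without overlap, whereas Nr4a1, Sgk1, Per1, Klk6 and Nacc2 overlap.

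Other immediate early genes were already abundant in Fos-negative oligodendrocytes. Arc had 266, 408 and 577 CPM in Fos-positive and 159, 273 and 482 CPM in Fos-negative wells. The ranges overlapped, although the Fos-positive value was higher in 6 of 6 mice (log2 difference 0.59, SE 0.13, adjusted p = 0.990 by edgeR and 0.000401 by DESeq2). Nr4a1, an orphan nuclear receptor, had 351 ± 124 against 263 ± 99.9 CPM and was higher in 4 of 6 mice (log2 difference 0.37, SE 0.31, adjusted p = 1.00, edgeR). Sgk1, a kinase induced by glucocorticoids, had 1958 ± 1294 against 2151 ± 1252 CPM and was higher in 3 of 6 mice (log2 difference -0.20, SE 0.14, adjusted p = 1.00, edgeR). Its level varied more between mice than between kinds of well: mouse 6 had 354 and 307 CPM and mouse 5 had 3701 and 3623 CPM. Per1, a clock gene that is also induced early, had 224 ± 93.8 against 172 ± 122 CPM (log2 difference 0.51, SE 0.29, adjusted p = 1.00, edgeR).

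For the other listed early genes averaging at least 20 CPM the ranges over mice overlapped and edgeR's test was not passed. Klf6, a zinc finger factor, had 47.1 ± 42.2 against 58.0 ± 34.8 CPM, Plk3, a stress kinase, 0.0 to 62.3 against 0.0 to 58.1 CPM (lowest and highest mouse), and Rhob, a small GTPase, 90.4 ± 29.5 against 109 ± 56.4 CPM. Errfi1, an inhibitor of the EGF receptor, had 118 ± 27.9 against 97.2 ± 45.7 CPM, and Mcl1, a survival protein, 27.4 ± 19.1 against 17.3 ± 16.8 CPM. Gadd45b, a stress protein, had 40.3 ± 36.8 against 14.3 ± 12.6 CPM and Plk2, a kinase related to Plk3, 21.2 ± 19.9 against 3.32 ± 7.91 CPM, each higher in 4 of 6 mice. Of these genes DESeq2 called Plk2 alone (log2 difference 7.12, adjusted p = 0.00202). Npas4, a factor induced by calcium in neurons, was at 10 counts in 0 of 88 Fos-positive wells, Atf3, a stress factor, in 1 and Klf4, a zinc finger factor, in 7.

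By list, 19 of 37 immediate early genes outside AP-1 were tested, the others being too low. Of these 1 passed as higher and 6 were higher at an unadjusted p under 0.05, 15 had a positive and 4 a negative difference, and the median log2 difference was 1.77, beside -0.24 over all genes tested. DESeq2 called 8 of them higher and 0 lower. Over the 28 tested genes of the AP-1, immediate early and feedback lists, 7 were higher in Fos-positive wells with no overlap between mice, against 11 of all 9156 genes (0.12%). Lower without overlap were 0 of the 28 and 20 of all genes (0.218%). The filter on low counts kept a gene that was high enough in either kind of well. Egr1, Egr2, Ier2, Btg2 and Plk2 entered mainly through the Fos-positive wells. Their medians in Fos-negative wells were 0.0955, 0.0, 0.0, 0.0808 and 0.0 CPM. The p-values given for these genes by Fos status carry that limit. The counts and medians of these lists therefore include genes that entered where they were high, and describe the lists without testing them. Upstream regulators of Fos, such as Map2k1 of the MAP kinase cascade, gave 0 passing genes of 21 tested, with 6 positive and 15 negative differences (median -0.60), where 34.5% of all genes were positive. DESeq2 called 3 of these lower (Atf1, Camk2d and Camk2g) and 0 higher. Genes of NF-kB and cytokine responses gave 0 of 4 by edgeR and 1 lower by DESeq2 (Nfkbia). Heat shock genes gave 0 of 15 by edgeR and 1 higher by DESeq2 (Dnajb1), with 8 positive and 7 negative differences (median 0.03).

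The early genes were found together in single cells. Of 45 AP-1 and immediate early genes other than Fos, a Fos-positive well had a median of 10 at 10 or more counts (range 2 to 18) and a Fos-negative well a median of 5 (range 0 to 11). Means over mice were 9.52 ± 1.26 and 5.03 ± 0.66 (SD, n = 6 mice), higher in 6 of 6 mice, with a difference of 4.49 and an exact two-sided sign-flip p of 0.0312, the smallest 6 mice allow. Of the 4 genes Egr1, Junb, Fosb and Ier2, chosen after their values were seen, all 4 reached 10 counts in 18 Fos-positive wells, 3 in 32, 2 in 19, 1 in 10 and 0 in 9. In Fos-negative wells 0 had 3 or 4 of them, 3 had 2, 14 had 1 and 193 had 0. The median Fos level was 554 CPM in the Fos-positive wells with 0 of these genes, 867 CPM with 1, 1551 CPM with 2, 3583 CPM with 3 and 4226 CPM with all 4. Fos-positive cells spanned the range from Fos without any of the 4 to the whole set.

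**Figure D4:**
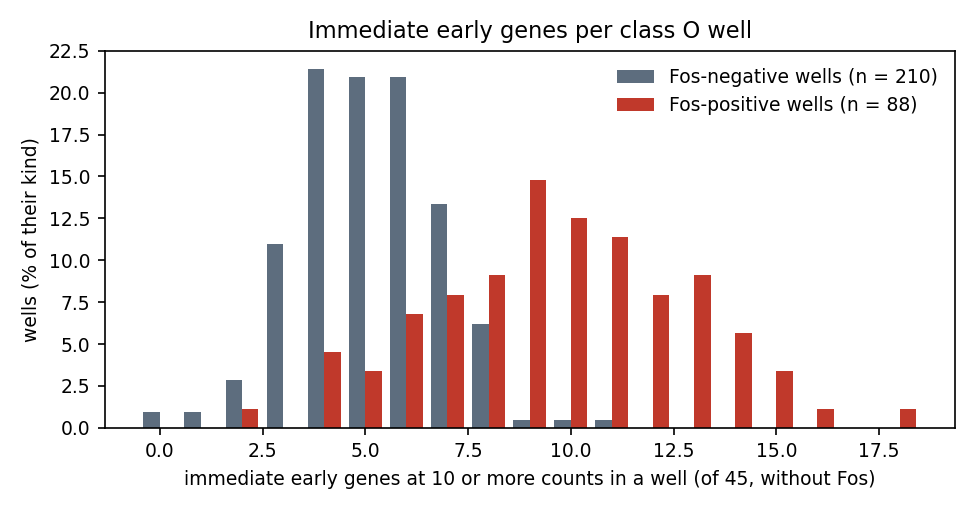
Number of AP-1 and immediate early genes, of 45 without Fos, at 10 or more counts in a well, as a percentage of the 210 Fos-negative (grey) and 88 Fos-positive (red) class O wells. The median is 5 in Fos-negative and 10 in Fos-positive wells, and the distributions overlap between 2 and 11 genes.

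Over all 298 class O wells, genes with a pattern among the most like that of Fos by Spearman correlation of CPM, among 5684 genes averaging at least 20 CPM, were Egr1 (rho 0.82), Fosb (0.74), Junb (0.70), Jun (0.53), Ier2 (0.52), Dusp1 (0.52), Btg2 (0.47), Dnajb1 (0.41) and Zfp36 (0.40). These wells share mice and libraries, and the values describe them without a test. The rho of Egr1 ranged from 0.73 to 0.89 within the 6 mice, and that of Zfp36 from -0.02 to 0.69. Within the 88 Fos-positive wells alone, rho with Fos was 0.73 for Egr1, 0.53 for Junb, 0.45 for Fosb and 0.44 for Jun, but 0.11 for Arc and 0.14 for Mog. Fos itself was at 2504 CPM in mouse 3 and 1935 CPM in mouse 8 of pool L6, below the 4 mice of pool L5 at 3532 to 4381 CPM. The single Fos-positive cells of mice 4 and 7 had 141 and 1254 CPM.

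No gene of the myelin lists passed edgeR's test. Of 15 tested genes of the myelin sheath, 6 had a positive and 9 a negative difference (median -0.07), beside 34.5% positive and a median of -0.24 over all genes tested. At an unadjusted p under 0.05, 4 of the 15 were lower, beside 2.38% of all genes, and DESeq2 called 2 lower, Tspan2 and Ninj2, beside 4.19% of all genes. Mbp, myelin basic protein, had 15849 ± 2175 against 15625 ± 1115 CPM (log2 difference -0.02, SE 0.06, adjusted p = 1.00, edgeR). Tspan2, a tetraspanin of the myelin membrane, had 1215 ± 218 against 1474 ± 171 CPM (log2 difference -0.32, SE 0.09, adjusted p = 1.00 by edgeR and 0.0331 by DESeq2). Ninj2, an adhesion protein, had 89.4 ± 42.2 against 166 ± 52.2 CPM, lower in 5 of 6 mice (adjusted p = 1.00 by edgeR and 0.0402 by DESeq2). Myelin lipid and metabolism genes gave 0 of 18 (median -0.02) and oligodendrocyte transcription factors 0 of 12 (median -0.01). Genes of precursors and newly formed oligodendrocytes gave 0 of 8, 7 of them with a negative difference (median -0.31), and DESeq2 called 1 of the 8 lower (Ptprz1). Of 23 tested genes of mature oligodendrocyte subtypes 1 passed, Dusp1, which that list also holds, and DESeq2 called 3 higher, Dusp1, Fosb and Dnajb1.

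Reported targets of miR-132 gave 0 passing genes of 16, with 3 positive and 13 negative differences (median -0.68), beside 34.5% positive and a median of -0.24 over all genes in the same fit. DESeq2 called 2 of them lower (Arhgap32 and Foxo1) and 0 higher. Nacc2, a transcriptional corepressor named in the study's title as an effector of miR-132, had 150 ± 58.7 against 150 ± 39.4 CPM (log2 difference -0.17, SE 0.27, adjusted p = 1.00, edgeR). Nes had 26.7 ± 1.93 against 28.4 ± 6.68 CPM (log2 difference -0.09, SE 0.64, adjusted p = 1.00, edgeR). Nfkbia, an inhibitor of NF-kB, was lower in the Fos-positive wells of 6 of 6 mice, at 166 ± 109 against 245 ± 148 CPM (log2 difference -0.70, SE 0.21, adjusted p = 1.00 by edgeR and 0.0402 by DESeq2).

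Transcripts of other cell types were present at low levels in both kinds of well. The 12 astrocyte or radial glia markers summed to 113 to 281 CPM over mice in Fos-positive and 177 to 438 CPM in Fos-negative wells, lower in 6 of 6 mice, with Aqp4 and Hopx at 10 counts in 0 Fos-positive wells. Clu, an astrocyte-rich chaperone, had 12.8 ± 19.8 against 56.4 ± 54.5 CPM (log2 difference -4.80, SE 1.64, adjusted p = 1.00 by edgeR and 6.67e-05 by DESeq2). The 12 microglia markers summed to 0.0 to 59.2 against 21.7 to 75.3 CPM, with Cx3cr1, P2ry12 and Tmem119 at 10 counts in 0 class O wells. The 10 endothelial markers summed to 22.3 to 83.1 against 4.08 to 50.3 CPM, higher in 5 of 6 mice, with Cldn5, Flt1 and Pecam1 at 10 counts in 0 class O wells. The 8 neuroblast markers summed to 6.33 to 184 against 13.4 to 98.7 CPM, higher in 4 of 6 mice, with Dcx and Sox11 at 10 counts in 0 wells. The 12 neuron markers summed to 98.9 to 279 against 88.9 to 294 CPM, and the mural, fibroblast and blood lists to at most 15.8 CPM. In class O wells with 0 hits of any other panel, an alternative added after the data had been seen, 4 mice could be fitted: the Egr1 log2 difference was 12.04, and Egr1 alone passed.

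Class A had its own Fos-positive wells, so the difference by Fos status was compared between the classes in the 4 mice with at least 3 wells of each kind (1, 2, 5 and 6, all of pool L5). Fos was at 4070 ± 388 CPM (SD, n = 4 mice) in 61 Fos-positive class O wells and 3632 ± 1908 CPM in 34 Fos-positive class A wells. Several early genes were high in both: Egr1 had 1057 ± 415 and 690 ± 404 CPM, Jun 962 ± 324 and 992 ± 593 CPM, Junb 432 ± 164 and 608 ± 207 CPM, and Dusp1 707 ± 243 and 849 ± 485 CPM. The interaction of class and Fos status, the difference in class O minus that in class A, was -0.997 (SE 2.84) on the log2 scale for Egr1, -0.27 (SE 0.70) for Jun, 0.75 (SE 2.07) for Junb and -1.04 (SE 1.45) for Dusp1, and none of these 4 passed (adjusted p = 1.00 each, edgeR). Errors of this size leave room for large differences. Egr2 was at 10 or more counts in 12 of the 61 Fos-positive class O wells and in 0 of the 34 Fos-positive class A wells.

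Arc and Sgk1 were abundant in class O and near 0 in class A, a difference between classes that was not tested. Arc had 486 ± 93.5 CPM in Fos-positive and 337 ± 105 CPM in Fos-negative class O wells, against 7.18 ± 14.4 and 0.0 CPM in class A. Sgk1 had 2104 ± 1457 and 2226 ± 1545 CPM in class O, against 13.4 ± 26.4 and 0.0 CPM in class A. The interaction did not pass for either (adjusted p = 1.00 for Arc and 0.938 for Sgk1, edgeR).

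Of 11520 genes tested for that interaction 3 passed, all with a lower difference in class O (0.026%) and 0 with a higher one (0.0%): Ebp, a sterol isomerase, Sulf2, a heparan sulfatase, and Sparcl1, a matrix protein of astrocytes. Ebp and Sulf2 were at 10 or more counts in 7 and 8 of 34 Fos-positive and in 0 of 54 Fos-negative class A wells. In class O, Ebp was in 22 of 61 Fos-positive and 32 of 82 Fos-negative wells and Sulf2 in 18 and 28. Sparcl1 was in all class A wells of these mice and in 0 of 61 Fos-positive and 7 of 82 Fos-negative class O wells. At an unadjusted p under 0.05, 185 genes had a higher (1.61%) and 369 a lower difference (3.2%) in class O. The adjusted count was 1 without mouse 1, 0 without mouse 2 and 4 without mouse 5.

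The treatment comparison asked whether the antagomir changed these cells. It used 42 Fos-positive wells of mice 2, 6 and 8 and 44 of mice 1, 3 and 5. Of 8800 genes edgeR called 0 in either direction (0.0%). At an unadjusted p under 0.05, 72 were higher (0.818%) and 90 lower (1.02%) after the antagomir, and DESeq2 called 18 higher (0.211%) and 28 lower (0.328%) of 8533. Fos had 4381, 4325 and 1935 CPM in mice 2, 6 and 8 and 4041, 2504 and 3532 CPM in mice 1, 3 and 5. Egr1 had 1050, 1504 and 893 CPM after the antagomir and 1169, 1203 and 504 CPM after the scrambled oligonucleotide (log2 difference 0.22, SE 0.36). Jun had 1339, 921 and 544 against 1033, 473 and 555 CPM (log2 difference 0.41, SE 0.43). In these genes the groups overlapped, as they did for Junb, at 677, 327 and 104 against 368, 234 and 355 CPM (log2 difference 0.19, SE 0.61).

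Nr4a1 had 523, 426 and 349 CPM after the antagomir and 378, 261 and 168 CPM after the scrambled oligonucleotide, with mouse 1 above mouse 8 (log2 difference 0.65, SE 0.35, adjusted p = 1.00, edgeR). Sgk1 had 1568, 354 and 2602 against 2792, 732 and 3701 CPM (log2 difference -0.73, SE 0.75, adjusted p = 1.00, edgeR). Of 20 AP-1 and immediate early genes averaging at least 20 CPM, 10 were higher and 10 lower, with a median log2 difference of -0.13, a range of -2.44 to 0.81 and overlap in all 20. Nacc2 had 153, 193 and 33.2 CPM after the antagomir and 181, 173 and 165 CPM after the scrambled oligonucleotide (log2 difference -0.49, SE 0.59, adjusted p = 1.00, edgeR). Mouse 8 was the low value, and the other antagomir mice lay on either side of the scrambled mice.

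The genes with the smallest p after treatment were outside the early gene lists. Pdk2, a kinase that inhibits pyruvate dehydrogenase, had 203, 212 and 280 CPM after the antagomir against 89.8, 79.2 and 72.9 CPM (log2 difference 1.47, SE 0.33, adjusted p = 1.00 by edgeR and 0.0156 by DESeq2). Prdx6, an antioxidant enzyme, had 191, 420 and 279 against 100.9, 102 and 104 CPM (log2 difference 1.48, SE 0.36, adjusted p = 1.00 by edgeR and 0.0589 by DESeq2). The groups did not overlap in either gene, but both were picked for their small p, so this adds no support. The share of all genes tested whose groups did not overlap by treatment was not counted. Hbegf, a growth factor of the EGF family, is listed among reported miR-132 targets. It had 37.7 ± 31.1 CPM after the antagomir and 0 counts in the scrambled mice. With 3 counts over the group standing in for 0, the ratio was 332-fold. For Ttc38 and Kctd21, also at 0 counts in the scrambled mice, it was 366-fold and 323-fold. These ratios cover the counting of reads only and are no lower bounds. The 3 genes rest on 3 to 4 wells at 10 or more counts. They entered the test through the antagomir mice, where they were found, and did not pass edgeR's test.

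Among genes with a lower level, Ampd2, an AMP deaminase, Ubox5 and Nat10, an RNA acetyltransferase, had 0 counts in the 3 antagomir mice, at least 347-fold, 318-fold and 277-fold lower against the same floor. They were at 10 or more counts in 7, 4 and 4 wells of the 3 scrambled mice. Zbtb48, a telomere-binding protein, and Gm37019 had 0.0169 CPM each after the antagomir against 38.0 ± 20.1 and 26.5 ± 18.8 CPM. The single Fos-positive cell of antagomir mouse 4, which was left out of the test, did hold Ubox5, at 21 counts, and Gm37019, at 38 counts. Its Ubox5 level was 31.5 CPM, beside a mean of 37.7 CPM in the 3 scrambled mice. The single Fos-positive cell of scrambled mouse 7, also left out, held 282 counts of Nat10 and 0 of the other 4 genes.

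**Figure D5:**
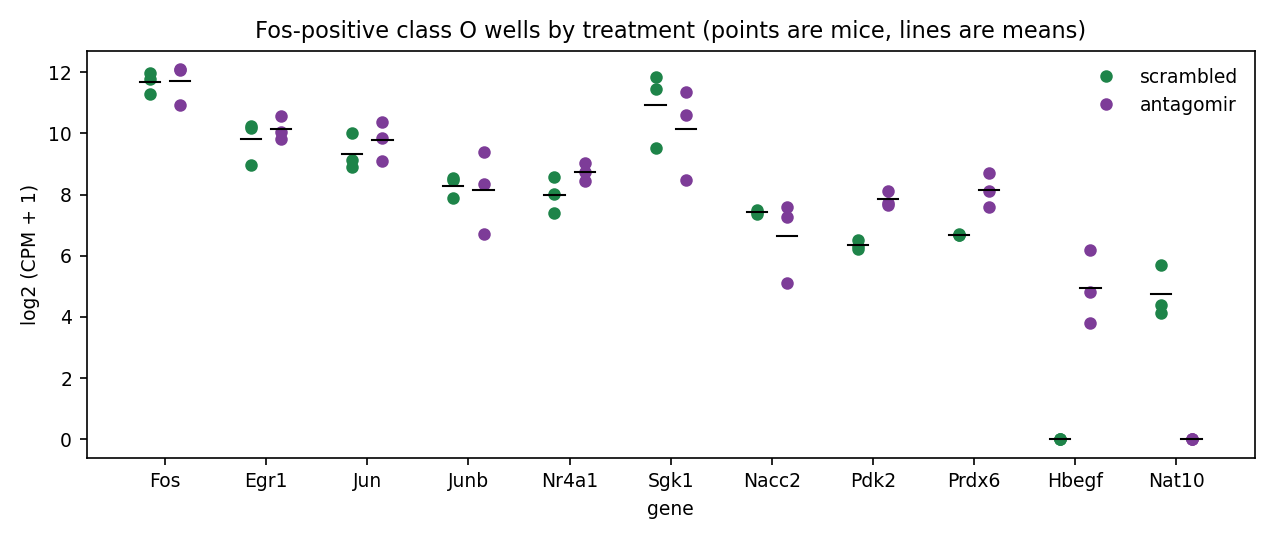
Levels in Fos-positive class O wells as log2 (CPM + 1), for 3 scrambled and 3 antagomir mice; points are mice and black lines are group means. Fos, Egr1, Jun, Nr4a1, Sgk1 and Nacc2 overlap between treatments, and Pdk2 and Prdx6, picked for their small p, do not.

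The test of whether the treatment difference varied with Fos status gave 0 of 10919 genes (0.0%) by edgeR. At an unadjusted p under 0.05, 72 had a higher (0.659%) and 139 a lower difference (1.27%) in Fos-positive wells, and DESeq2 called 146 (1.34%) and 230 (2.11%).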

How the data were processed

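Reads of single wells were counted per gene. The authors deposited raw counts for 31557 gene symbols in 768 wells, with a table of each well's mouse, treatment, sort day and pool. Tools in the submitters' processing notes are STAR 2.5.2, featureCounts 1.5.1 of Subread, FastQC and Seurat 2.3.1, with build mm10; no source used here gives the strand setting or annotation release. The labels' samples could not be tied to single mice, so the mouse in the deposited well table was the replicate. Kept wells held a median of 650777 counts and mice 43996495 to 69191485 counts; Wilson intervals and floors cover counting error only.

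Counts were summed per mouse and kind of well. CPM are counts scaled to a sum of 1000000. Genes were tested with edgeR 4.0.16 (filterByExpr, TMM, quasi-likelihood, Benjamini-Hochberg adjustment) in R 4.3.3, with the mouse as a block for Fos status, on mice with at least 5 wells of each kind (3 for the comparison with class A). DESeq2 1.42.0 and limma 3.58.1 with a pseudocount of 1 were alternatives, as were scaling, filters, thresholds, thinning to 200000 counts, pools, sort days and leaving out each mouse. Scripts were tested on simulated data. Shares were compared by exact tests with scipy 1.17.1. Fos and the panel genes were left out of tests.

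Genes were named by rule: those past an adjusted p of 0.05 with the same sign in every mouse, listed early genes averaging 20 CPM or more, up to 4 of the most abundant members of other lists, and for treatment the 5 with the smallest p in each direction. Klk6, Tspan2, Dnajb1, Bcas1os1, Npas4, Atf3, Klf4 and genes given as called by DESeq2 alone were named outside this rule, after their values were seen. Some genes that the rule names are not reported here. The members and lists were chosen with earlier results of these data known.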

Additional observations from a re-analysis of the deposited data

Results flagged for a closer look

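The search covered 66 groups, of 6 mice for gene levels and 4 mice for class O shares. In 7 of them a mouse was set apart by a gap above Dixon's 95% critical value for its share of the group's range. Chance gives this in about 1 in 20 groups. In Fos-negative class O wells these were Egr1 at 20.9 CPM in mouse 2, Ier2 at 5.50 CPM and Bcas1os1 at 13.6 CPM in mouse 3, and Plk2 at 19.5 CPM and Clu at 161 CPM in mouse 8, all above the other mice. In Fos-positive wells Egr2 was high in mouse 2 at 105 CPM, and Nacc2 was low in mouse 8 at 33.2 CPM.

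The difference by Fos status was lower in class O than in class A for 3 genes by edgeR's test of the interaction in 4 mice. The difference in class O minus that in class A was -12.39 on the log2 scale for Ebp, -6.54 for Sparcl1 and -11.31 for Sulf2. The values for Ebp, Sulf2 and Sparcl1 rest on groups at or near 0 counts and are not bounds. For Sparcl1 this group was the Fos-positive class O wells, at a mean of 0.146 CPM.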

How the results depend on the processing

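The count of 3 genes by Fos status became 462 with DESeq2 (78 higher, 384 lower), 10 with limma and 5 after thinning, 1 within pool L5, 0 within pool L6, 0 within sort day 1, 1 within sort day 2 and 1 in wells with 0 hits of other panels. It ran from 2 to 3 when each mouse was left out. Without the replicate block of the mouse it was 3, with Jun at an adjusted p of 0.0596 and Egr1 at 0.0877 by edgeR. The treatment count of 0 became 46 with DESeq2 and stayed 0 when each mouse was left out and with a replicate block of sort day and pool; pool L6 alone could not be fitted. The count for treatment by Fos status became 376 with DESeq2. The comparison with class A gave 5 genes without a filter on low counts and 0 to 4 when each mouse was left out.

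The share difference by treatment was -0.251 percentage points after thinning (exact permutation p = 1.00) and ran from -10.7 to 8.38 when each mouse was left out. With sort day and pool as the block it was 0.244 (exact sign-flip p = 1.00). The 2 mice of a block did not deviate together (r = -0.0217 for mice 1 and 2 and 0.00576 for mice 5 and 6), so the pairing rests on the design alone.

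Log2 differences of genes that had not passed the test changed sign as follows, and the cause was not tested. By Fos status, limma gave 0.058 for Sgk1, 0.11 for Klf6 and 0.25 for Nacc2. Pool L6 alone gave -0.076 for Errfi1, -0.90 for Gadd45b, -0.88 for Mcl1, -1.45 for Klk6 and 0.092 for Nes, and pool L5 0.087 for Nacc2. Sort day 1 gave 0.35 for Klf6, 0.15 for Nes and 0.042 for Nacc2, and sort day 2 -0.19 for Nr4a1, 0.030 for Sgk1 and -3.66 for Klk6. Wells with 0 hits of other panels gave 0.021 for Nacc2. Leaving out each mouse gave -0.021 to 2.16 for Klk6, -0.20 to 0.018 for Nes and -0.27 to 0.094 for Nacc2. Mbp, near 0 throughout, was 0.023 with DESeq2 and with its scaling in edgeR, 0.020 with limma, 0.0060 in pool L5, 0.083 on sort day 1, 0.0035 with Fos at 1 or more counts and -0.047 to 0.031 when each mouse was left out. For treatment, limma gave -0.41 for Egr1 and -0.75 for Nr4a1, sort day 1 -0.13 for Egr1, sort day 2 -0.84 for Junb, and wells with 0 hits of other panels 0.49 for Nacc2. Leaving out each mouse gave -0.076 to 0.39 for Egr1, -0.010 to 0.83 for Jun and -0.67 to 0.64 for Junb, whose difference was -0.012 without mouse 3. For the interaction with class, Arc ran from -8.04 to 0.35.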

Other observations

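Outside the 4 larger classes, Fos reached 10 counts in 8 of 30 wells of the neuroblast-like class N (26.7%) and in 4 of 21 wells that met no panel's rule or tied. With 1 to 5 class N wells per mouse, these shares were not compared with that of class O.

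Among the Fos-positive oligodendrocytes, the wells with Egr1 at 10 or more counts had a median Fos level of 3370 CPM and the wells without it 554 CPM. For Arc the order was the other way round, with 2510 CPM in wells with Arc and 3282 CPM in those without. No test was run on either.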
